A study of Mus musculus with 6 samples.

Results

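Amino acid transport was examined through 10 genes in B16F10 cells, an established line of mouse melanoma: Slc7a1, Slc7a5, Slc7a6, Slc1a4, Slc1a5, Slc38a1, Slc38a2, Slc38a9, Slc6a9 and Slc43a2. These 10 of the 27179 genes in the deposited table were taken by symbol from a given list, which leaves out the cystine transporter of system xc- and was drawn up with earlier results of these data known. RNA was sequenced from 6 libraries of wild-type (WT) B16F10 cells, of which 3 came from cells given 0.01% ozonated olive oil (OZO) and 3 from cells given 0.01% olive oil (OLO), each for 6 h. The labels number the 3 libraries of a group without saying how they were grown, and the paper describes its B16F10 transcriptome data as coming from 3 independent experiments. Both groups received oil, and a group without oil was not analysed here.

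The value analysed for each gene was the authors' average log2 CPM over all 6 libraries, where CPM stands for counts scaled to a common library size. It weighs OZO and OLO cells equally, so a level below is the level of neither treatment alone. The fold changes, test statistics and p-values in the same table are the authors' own comparison and were not used, and no value of a single library was analysed. For that reason no difference between OZO and OLO is given, and no spread between libraries stands beside the levels. In these bulk libraries, fewer cells that transcribe a gene and less RNA per cell cannot be told apart.

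Amino acids cross membranes through solute carriers (SLC proteins), which differ in the side chains they accept and in the ions that drive them. Some carriers exchange 1 amino acid for another, others load the cell with the help of sodium, and others let amino acids run down their gradient. In dividing tumour cells, uptake of glutamine, leucine and arginine feeds protein synthesis and keeps the growth kinase complex mTORC1 active, and shortage of amino acids raises transcription of several carriers through the factor ATF4.

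The label of the cells was compared with marker genes first. All 8 melanocyte markers were read, from 61.0 CPM for Mc1r, the melanocortin receptor, to 7052 CPM for Dct, a melanin enzyme. The 4 keratinocyte markers summed to 0.123 CPM, Krt5 having no reads, and the 4 leukocyte markers to 0.202 CPM. A gene without reads, such as Krt5, stands at 0.0255 CPM because 0.5 reads are added to every count. These 2 sums contain that floor for each gene. Fibroblast markers summed to 6.44 CPM over 4 genes, led by Pdgfra at 3.28 CPM, and endothelial markers to 1.36 CPM over 3 genes, led by Pecam1 at 1.21 CPM. From the value shared by the 6025 genes without reads, the scaled libraries held 19641945 reads each as a geometric mean, so that 1 CPM stood for 19.6 reads per library. The depth of each single library is unknown.

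All 10 transporters were read at 16 CPM or more on average. The lowest, Slc43a2, rested on 435 reads per library and the highest, Slc38a2, on 27213. Counting error alone, for 6 libraries of equal depth, was 1.96% of the level for Slc43a2 and 0.247% for Slc38a2, and it does not contain the variation between libraries. For comparison, 7721 of the 27179 genes (28.4%) reached 16 CPM, and the median of all genes was 0.357 CPM. The members had a median of 105 CPM. A list drawn up in this way can favour well expressed genes.

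Long transcripts collect more reads, so levels of different genes are set side by side per kilobase (kb) of exon, the union of all exons that GENCODE M21 annotates for a gene. On this scale the order was Slc38a2, Slc7a5, Slc7a1, Slc38a1, Slc1a4, Slc1a5, Slc7a6, Slc6a9, Slc38a9 and Slc43a2, from 157 to 2.21 CPM per kb, a 71.1-fold range. With the union of exons Slc7a1 was 1.03 times Slc38a1, and Slc38a1 1.09 times Slc1a4. With the longest transcript as the length the 3 genes lay apart and in another order, Slc38a1 at 97.6, Slc7a1 at 67.9 and Slc1a4 at 37.9 CPM per kb. Between other neighbours by union of exons the ratio ran from 1.27 (Slc1a5 over Slc7a6) to 2.76 (Slc7a6 over Slc6a9). Whether neighbours in this order differ beyond the spread between libraries was not tested.

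**Figure D1:**
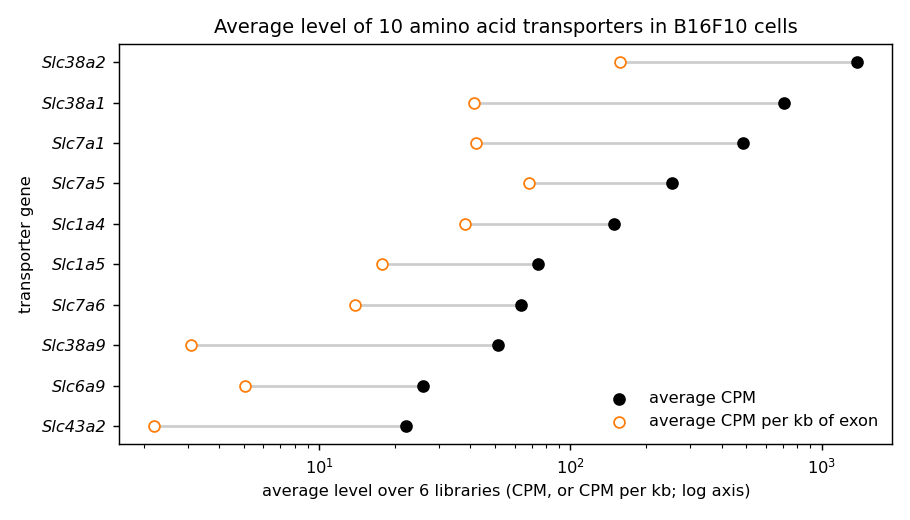
Average level of each transporter over the 6 libraries on a log axis, as CPM (filled points) and as CPM per kb of exon (open points), 1 row per gene; the points carry no error bars because the authors' average is pooled. Slc38a2 is highest on both scales, while Slc38a1 is at 709 CPM and 41.1 CPM per kb and Slc7a5 at 254 CPM and 68.5 CPM per kb, so their order turns with the union of exons as the length, but not with the longest transcript (97.6 and 72.3 CPM per kb).

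Carriers that load cells with the help of sodium were a pair of SLC38 genes and 1 SLC6 gene. Slc38a2 encodes SNAT2, which loads cells with small neutral amino acids such as alanine and glutamine, and is known to be induced when amino acids are short. It averaged 10.44 on the log2 CPM scale, or 1385 CPM, and ranked 41 among all genes of the table by CPM. Per kb of exon it reached 157 CPM, which was 40.3% of the sum over the 10 genes and 3.81 times the level of Slc38a1. Slc38a1 encodes SNAT1, a carrier of the same transport system, and averaged 9.47 on the log2 scale, or 709 CPM (13923 reads per library). With the longest transcript as the length, in place of the union of exons, Slc38a2 was 2.32 times Slc38a1, since the exons of Slc38a1 span 17.2 kb and its longest transcript 7.27 kb. The genes lie beside each other on chromosome 15 (GRCm38), both on the minus strand, Slc38a1 from 96571418 to 96642913 and Slc38a2 from 96687392 to 96699730, with 44.5 kb between them.

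Slc6a9, which encodes the glycine transporter GlyT1, lies on chromosome 4 from 117834506 to 117875198 on the plus strand. It averaged 4.70 on the log2 CPM scale, or 26.0 CPM, and 5.05 CPM per kb. Of its exons, 27.8% (1429 bases) overlap Ccdc24 on the opposite strand, a gene averaging 0.78 on the log2 CPM scale. The library kit keeps strand, but whether the counting used it is not given in the sources used here, so a part of the Slc6a9 reads could belong to Ccdc24 or have been set aside as ambiguous. The second glycine transporter of the family, Slc6a5 (GlyT2), known from inhibitory neurons, had no reads in any library.

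Exchangers of neutral amino acids came from the SLC1 family. Slc1a4 encodes ASCT1, which exchanges alanine, serine, cysteine and threonine, and lies on chromosome 11 from 20302180 to 20332713 on the minus strand. It averaged 7.22 on the log2 CPM scale, or 149 CPM, and 37.9 CPM per kb. Slc1a5 encodes ASCT2, which also carries glutamine, and lies on chromosome 7 from 16781340 to 16798274 on the plus strand. Its average was 6.21 on the log2 scale, or 74.1 CPM, and 17.8 CPM per kb. Slc1a4 was thus 2.13 times Slc1a5 per kb of exon, and 1.43 times with the longest transcripts. The glutamate transporters of the family were lower, Slc1a2 at 0.713, Slc1a3 at 0.245 and Slc1a1 at 0.0695 CPM per kb (0.573 CPM).

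Slc7a1 encodes CAT1, a carrier of arginine and lysine. The gene lies on chromosome 5 from 148327410 to 148399904 on the minus strand. It averaged 8.93 on the log2 CPM scale, or 487 CPM (9570 reads per library), and 42.3 CPM per kb. Of the other cationic carriers, Slc7a3 (CAT3) was at 0.914 CPM per kb, so that Slc7a1 was 46.3 times as high. Slc7a2 (CAT2) was at 0.0271 CPM per kb and averaged 0.248 CPM, or 4.37 reads per library.

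Slc7a5 and Slc7a6 encode light chains that reach the cell surface only when joined to the heavy chain CD98, the product of Slc3a2. Slc7a5 encodes LAT1, which brings in leucine and other large neutral amino acids in exchange for glutamine, and lies on chromosome 8 from 121881150 to 121907694 on the minus strand. It averaged 7.99 on the log2 CPM scale, or 254 CPM, and 68.5 CPM per kb. Slc7a6 encodes y+LAT2, which exports arginine in exchange for neutral amino acids, and lies on the same chromosome from 106168857 to 106198706 on the plus strand. It averaged 5.99 on the log2 scale, or 63.7 CPM, and 13.9 CPM per kb, so Slc7a5 was 4.92 times as high per kb. The second light chain of each kind was lower. Slc7a8 (LAT2) was at 0.309 CPM per kb, and Slc7a5 was 222 times as high. Slc7a7 (y+LAT1) was at 1.81 CPM per kb, and Slc7a6 was 7.70 times as high.

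The heavy chain gene Slc3a2 was at 101 CPM per kb, against 84.6 CPM per kb for Slc7a5, Slc7a6, Slc7a7 and Slc7a8 together, a ratio of 1.19, and of 1.37 with the longest transcripts. The light chain of system xc- also pairs with CD98 and was not counted in this sum. Slc3a1, the heavy chain known from kidney and gut, was at 0.497 CPM per kb, and Slc3a2 was 203 times as high. These are RNA levels, and protein was not measured in these libraries.

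Slc43a2 encodes LAT4, which lets leucine, phenylalanine and methionine pass down their gradient without a heavy chain. It lies on chromosome 11 from 75531694 to 75577575 on the plus strand. It was the lowest of the 10 genes, with 4.47 on the log2 CPM scale, or 22.2 CPM, and 2.21 CPM per kb, and Slc7a5 was 31.1 times as high per kb. An antisense gene, Gm45606, overlaps 9.18% of its exons. Its relative Slc43a1 (LAT3) averaged 0.544 CPM, and Slc43a2 was 23.2 times as high per kb.

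Slc38a9 stands apart from the name of the group. Its product is known as a protein of the lysosomal membrane that senses arginine for mTORC1, not as a carrier of the plasma membrane. The gene lies on chromosome 13 from 112660751 to 112738749 on the plus strand and averaged 5.69 on the log2 CPM scale, or 51.7 CPM. Its annotated exons sum to 16.7 kb, which gave 3.09 CPM per kb, and its longest transcript of 8.91 kb gave 5.80. Other lysosomal carriers were measured beside it. Slc38a7, which encodes SNAT7, an exporter of glutamine from lysosomes, was at 16.7 CPM per kb, so that Slc38a9 was 0.185 times as high, and 0.279 times with the longest transcripts. Slc36a1 (PAT1), a proton-coupled carrier, was at 4.46 CPM per kb, and Slc38a9 was 0.694 times as high with the union of exons but 1.22 times as high with the longest transcripts, so no order is given for this pair.

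**Figure D2:**
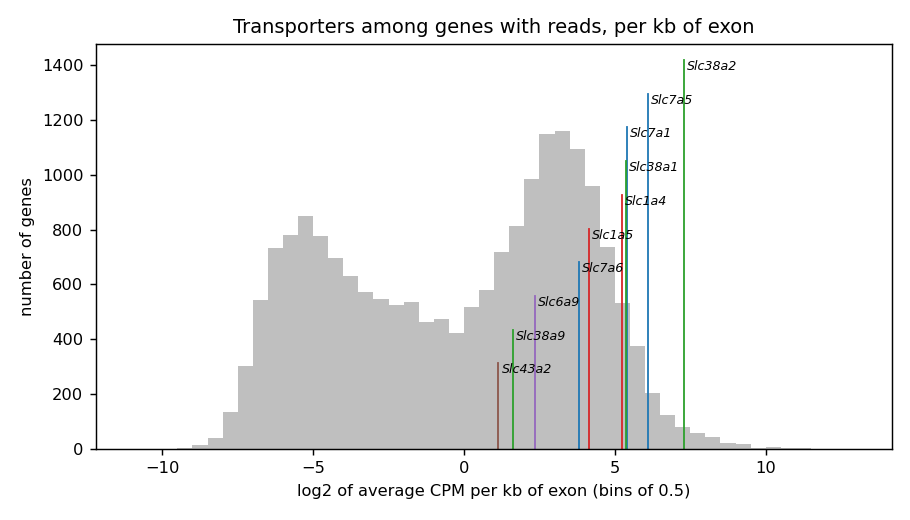
Number of genes (grey bars, vertical axis) by the log2 of their average CPM per kb of exon (horizontal axis, bins of 0.5) for the 19227 genes with reads and an annotated length, with a labelled line at each transporter; the heights of the lines only separate the names. Slc38a2 lies at percentile 99.0 of these genes and Slc43a2 at percentile 53.9.

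Set among the 19227 genes with reads and an annotated length, Slc38a2 lay at percentile 99.0 per kb of exon and Slc7a5 at 97.3. Slc7a1 and Slc38a1 followed at percentiles 94.7 and 94.5, and Slc1a4 at 93.9. Slc1a5 was at 85.0 and Slc7a6 at 81.4. Slc6a9 (64.2), Slc38a9 (57.5) and Slc43a2 (53.9) lay nearer to the middle, the median of these genes being 1.47 CPM per kb. On the CPM scale without length, 4 of the 10 genes (Slc38a2, Slc38a1, Slc7a1 and Slc7a5) ranked within the first 1000 of the table.

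The members were then set beside 36 other transporter genes of the same and related families. Of these, 13 (36.1%) averaged at least 1 CPM and 5 (13.9%) at least 16 CPM, 20 had reads but less than 1 CPM, and 3 had no reads. Among all genes of the table, 43.7% averaged at least 1 CPM. The 5 genes at 16 CPM or more were Slc6a6, Slc38a10, Slc38a7, Slc6a17 and Slc36a1. Slc6a6, which encodes the taurine transporter, was the highest of them at 50.6 CPM per kb, below Slc38a2 and Slc7a5 and above the other 8 members. With the longest transcripts it was at 69.2 CPM per kb, and Slc38a1, at 97.6, lay above it too. Slc38a10 was at 25.7 CPM per kb and Slc6a17, known from synaptic vesicles, at 5.52. Among the members and these 36 genes, a member held the highest place per kb within SLC7, SLC1, SLC38 and SLC43. In SLC6 the place fell to Slc6a6, at 10.0 times Slc6a9 per kb. The lists do not cover whole families, and system xc- is in neither, so the highest gene of a family is not given here.

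**Figure D3:**
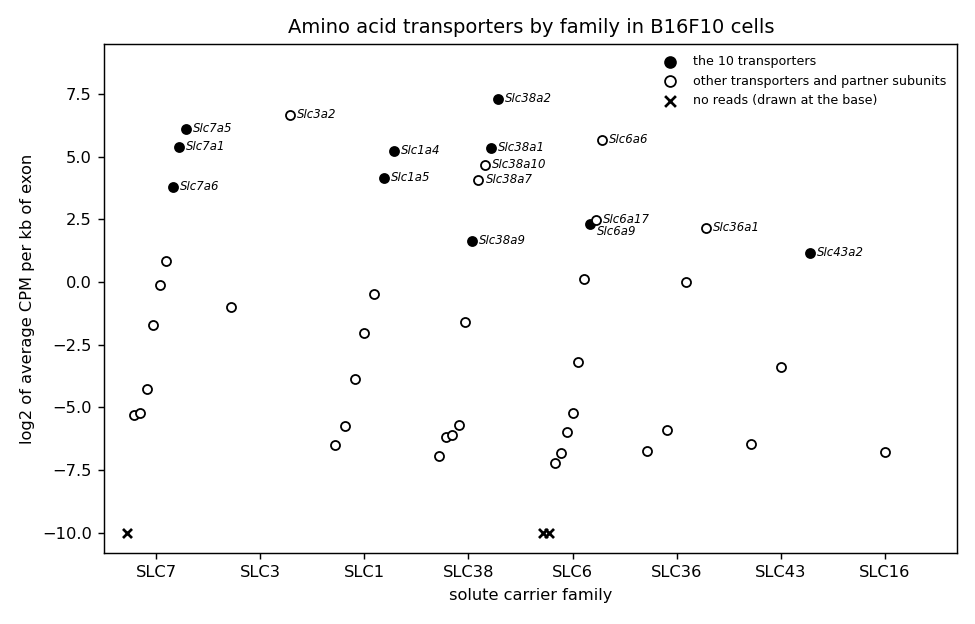
Log2 of the average CPM per kb of exon (vertical axis) for the 10 transporters (filled points) and for 36 other transporters and 2 partner subunits (open points), by solute carrier family (horizontal axis), with the 3 genes without reads as crosses at the base. Within SLC7, SLC1 and SLC43 each filled point lies above all open ones, while Slc38a9 at 3.09 CPM per kb lies below Slc38a7 and Slc38a10, and Slc6a9 below Slc6a6 and Slc6a17.

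Sharing of sequence with other genes was looked for, since it bears on which gene a read is counted for. In the longest transcript of Slc7a5, Slc7a6, Slc1a4, Slc1a5, Slc38a1, Slc38a2 and Slc38a9, none of the stretches of 50 bases occurred in a transcript of another gene, on either strand. In Slc7a1 16 of 7130 did (0.224%). The exceptions were Slc6a9, with 41.2% of its stretches shared, mostly with Ccdc24, and Slc43a2, with 6.65%, mostly with Gm45606, both from genes that overlap on the opposite strand, so that such reads align to 1 place and their gene depends on strand. No member shared such a stretch mostly with another member.

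Sequence before the gene starts was read from RefSeq windows on GRCm38.p6 (250 bases before to 50 after a start), which hold 12 windows for 7 of the members. A pair of motifs was searched on both strands, TGATGNAA, known as the element that ATF4 binds with C/EBP partners, and TGACNNNGC, the core of the antioxidant response element that NRF2 binds. Matches are shown because several carriers are known targets of stress factors, and a match describes letters, not binding. Members without a window were not searched. TGATGNAA occurred in 1 of the 7 genes, against 4.51% of the 27025 genes with windows, and TGACNNNGC in 4 of the 7, against 14.0%. A gene was counted if any of its windows matched, so genes with several windows had more places to match. By window, TGATGNAA occurred in 1 of 12, against 3.97% of 32851, and TGACNNNGC in 6 of 12, against 12.4%. The 6 include the same bases of Slc7a6 in overlapping windows. The windows of the members were also richer in G and C than all windows, and enrichment was not tested. Stretches from 4 of the 5 genes with a match are written 5′ to 3′ on the strand of the gene with the match in capitals.
Slc1a4, TGATGNAA on the opposite strand, chr11:20332695-20332732: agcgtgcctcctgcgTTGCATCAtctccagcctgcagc
Slc38a2, TGACNNNGC, chr15:96699732-96699770: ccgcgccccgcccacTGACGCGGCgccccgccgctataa
Slc7a6, TGACNNNGC, chr8:106168838-106168876: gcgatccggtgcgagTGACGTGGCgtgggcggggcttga
Slc6a9, second start, TGACNNNGC, chr4:117849289-117849327: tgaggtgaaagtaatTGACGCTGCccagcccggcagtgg
Slc6a9, last start, TGACNNNGC, chr4:117855487-117855525: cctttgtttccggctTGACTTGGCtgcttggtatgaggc

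The match in Slc1a4 began 4 bases before the annotated start, and that in Slc38a2 27 bases before it. In Slc7a6 the match began 1 base before one start and 68 before the other, which are the same bases. In Slc6a9 the matches began 46 and 45 bases before the second and the last start, and the first start had none. The 12 windows were rich in G and C, with a median of 63.2% against 52.7% for all 32851 windows, and ranged from 51.7% to 76.7%. Slc38a9 and Slc43a2 had windows without either motif.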

How the data were processed

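RNA of B16F10 cells (3 OZO and 3 OLO libraries) was read as paired ends. Per the paper's methods and the labels, reads were aligned to mm10 with HISAT2 (2.1.0), counted with featureCounts (2.1.1) and modelled with limma-voom (3.58.1). Filters, strand use, the annotation used for counting and scaling factors are not given in the sources used here. From the deposited table, only the authors' average log2 CPM per gene over all 6 libraries was used. The 5 other value columns hold the authors' own comparison of OZO with OLO (log2 fold change, moderated statistic, p-values and log-odds) and were not used. The planned test between groups therefore had no values to work on.

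Library size was recovered from the lowest shared average, given the 0.5 reads that voom adds. As a check, 100% of 3915 genes with few reads matched odd whole numbers of the kind this formula gives (tolerance 0.01). Exon unions and positions came from GENCODE M21, which held 23882 of the 24126 Ensembl identifiers. Its exon lengths may differ from those of the annotation used for counting, which would change every level per kb. Low levels contain the added 0.5 reads. Recovery, percentiles and motif search were tested on simulated data. Named genes were the members, the CD98-type heavy chains, cell type markers and other transporters of at least 16 CPM. Slc1a1, Slc1a2, Slc1a3, Slc7a2, Slc7a3, Slc7a7, Slc7a8, Slc43a1 and Slc6a5 were named after their values were seen, as were the overlapping genes Ccdc24 and Gm45606. The sequence around 1 motif match is not reported here. Members and lists were chosen with earlier results of these data known. Python 3.11.15, numpy 2.4.6, pandas 2.3.3, scipy 1.17.1 and matplotlib 3.10.9 were used.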

Additional observations from a re-analysis of the deposited data

How the results depend on the processing

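The 10 transporters had a median percentile of 88.4 by CPM among genes with reads. It was 91.0 among all genes of the table, 79.4 among genes of at least 1 CPM, and 89.5 per kb of exon, an alternative chosen after seeing the data. Their median level was 27.8 CPM per kb with the union of exons and 32.1 with the longest transcript, where Slc38a1 moved from the fourth place to the second and 3 of the 10 genes changed place. Of the 36 other transporters, 13 averaged at least 1 CPM, 5 at least 16 CPM and 33 had any read. Searched on the strand of the gene only, TGATGNAA occurred in 0 of the 7 members with windows, in place of 1, and TGACNNNGC in 3, in place of 4, against 2.41% and 7.29% of all genes with windows on that strand. No paired analysis was possible because only 1 average over the libraries was used for each gene. For the same reason the test of OZO against OLO, its normalization, filter and pseudocount alternatives and leaving out each replicate were not run. The comparison of protein sequences was not run, since no protein table was used here. The pooled average limits what can be said, as counting error is known but the variation between libraries is not.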
